A study of Zea mays with 6 samples.

Results

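The C4 cycle and Rubisco genes of maize were followed in the shoots of young seedlings after a short auxin treatment. The set holds 10 genes, listed by identifier for the enzymes they encode, out of 39283 genes in the expression table. The list was drawn up when earlier results of these data were known. It covers the enzymes that capture CO2 in the leaf (2 carbonic anhydrase genes and the phosphoenolpyruvate carboxylase gene PEPC), turn it into malate (NADP-MDH), release it again (NADP-ME and PEPCK), renew its acceptor (PPDK) and fix it finally (2 genes of the Rubisco small subunit and Rubisco activase). The shoots were those of the inbred line B73, grown in a greenhouse and 7 days old. They were held for 30 min either in indole-3-acetic acid (IAA, the main natural auxin) dissolved in 1% DMSO or in 1% DMSO without the hormone. The IAA group and the DMSO group had 3 libraries each, and each library was made from 3 plants, so every group consisted of excised shoots in liquid. The sample labels give the IAA concentration as 100 mM, whereas the unit in the methods text is μM. RNA-seq was read out as FPKM, the number of fragments assigned to a gene per length of transcript, scaled to the number of mapped fragments.

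In C4 plants such as maize, photosynthesis is divided between the mesophyll and the bundle sheath, a ring of cells around the veins. Mesophyll cells capture CO2 as bicarbonate and bind it into C4 acids, which move to the bundle sheath, where the CO2 is set free beside Rubisco and enters the Calvin cycle. The transcripts of this pathway are among the most abundant in a green maize leaf, and most of them are restricted to either of these cell types.

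The table holds 1 pooled FPKM value per gene and treatment, over the 3 libraries of that treatment. The FPKM values therefore show neither the spread between libraries nor the depth of each, no test was made of any difference, and the values are described by the ratio of IAA over DMSO. A ratio of at least 1.5, or of at most 1/1.5, is counted below as past 1.5-fold. Over the 22506 genes whose mean FPKM reached 1 and whose value was above 0 in both treatments, 4.10% were past 1.5-fold higher and 5.18% past 1.5-fold lower. The median log2 ratio over these genes was -0.04. All libraries came from whole shoots, in which a change in the number of cells of a type and a change in RNA per cell cannot be told apart. Most genes that mark green tissue were abundant in both treatments. The 8 chlorophyll a-b binding protein genes that could be identified by symbol lay between 130.6 and 3929 FPKM after IAA and between 146.0 and 3809 FPKM in DMSO. Of 8 photosystem genes, 6 lay between 204.5 and 1379 FPKM after IAA and between 180.4 and 1158 FPKM in DMSO. The others, the oxygen-evolving complex genes GRMZM2G021617 and GRMZM2G058070 (both PSBQ1), had 0.0235 and 0 FPKM after IAA. Both had 0 FPKM in DMSO.

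Every one of the 10 C4 and Rubisco genes had a ratio above 1, the RbcS genes only barely. Among the 22506 genes, 10007 had a ratio above 1, and among the 1498 whose mean FPKM reached 100, 588 did. Of the 10 genes, 5 were past 1.5-fold higher, against the 4.10% of all genes, and none was past 1.5-fold lower, against 5.18%. Since the set was listed with earlier results known, these counts describe it and are not independent evidence. The 5 genes were PEPCK, the carbonic anhydrase gene GRMZM2G121878, PPDK, PEPC and Rubisco activase. NADP-MDH, NADP-ME and the other carbonic anhydrase gene had ratios between 1.27 and 1.32, and both Rubisco small subunit genes had a ratio of 1.01. The median log2 ratio of the 10 genes was 0.49. Whether any of these differences is larger than the spread between libraries was not judged here, since the FPKM values are pooled and the test columns of the deposited table were not used.

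**Figure D1:**
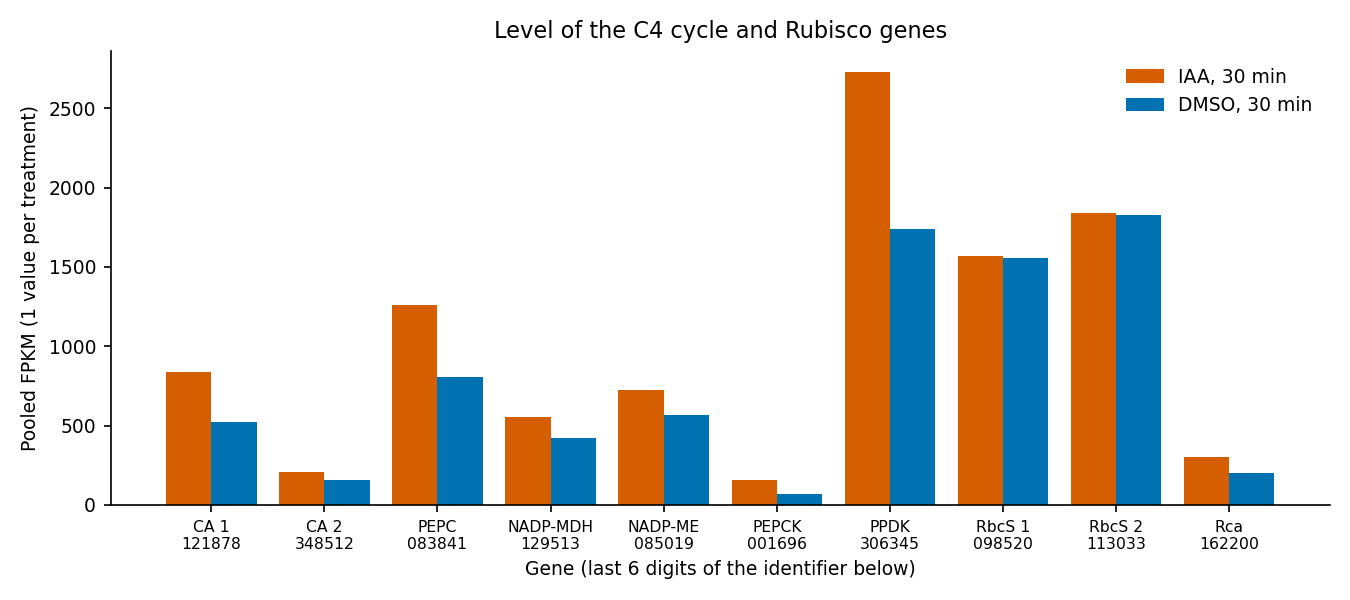
Pooled FPKM (vertical axis, linear from 0) of each of the 10 genes after IAA (orange) and in DMSO (blue), each bar 1 value over 3 libraries, without an error bar because the values are pooled. PPDK had the tallest bar after IAA, 2726 FPKM, against 1741 FPKM in DMSO, whereas the bars of the RbcS genes were nearly level between the treatments.

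Carbonic anhydrase turns dissolved CO2 into bicarbonate, the form that PEP carboxylase uses. The gene GRMZM2G121878 lies on chromosome 3 from 215547876 to 215555228 (B73v3, as are all positions) and had 836.5 FPKM after IAA, against 524.3 FPKM in DMSO. This is a ratio of 1.596, or 0.67 on the log2 scale. The gene GRMZM2G348512, on chromosome 3 from 215506034 to 215518935, is its neighbour, with 28940 bases between the 2 loci. It had 208.5 FPKM after IAA and 158.5 FPKM in DMSO, a ratio of 1.32. The first gene was the more abundant in both treatments, at 4.01 times the level of its neighbour after IAA and 3.31 times in DMSO. The 2 genes summed to 1045 FPKM after IAA and 682.8 FPKM in DMSO. GRMZM2G348512 corresponds to 2 entries in the RefSeq annotation of a later B73 assembly, so its value may combine separate genes, and reads from stretches that the carbonic anhydrase genes share may have been divided between them.

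PEP carboxylase (PEPC, GRMZM2G083841) binds bicarbonate to phosphoenolpyruvate and so makes the first C4 acid, oxaloacetate. The gene lies on chromosome 9 from 62306266 to 62311673. Its level was 1258.5 FPKM after IAA, against 804.6 FPKM in DMSO. The ratio was 1.56, and on the log2 scale 0.65. Among all 39283 genes it was number 20 by level after IAA and number 87 in DMSO.

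NADP-dependent malate dehydrogenase (NADP-MDH, GRMZM2G129513) reduces oxaloacetate to malate in the mesophyll chloroplast. The gene, on chromosome 1 from 203209824 to 203213983, had 551.8 FPKM after IAA and 422.5 FPKM in DMSO, a ratio of 1.31. Its log2 ratio of 0.39 was below those of PEPC and of the more abundant carbonic anhydrase gene.

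In the bundle sheath, NADP-dependent malic enzyme (NADP-ME, GRMZM2G085019) splits malate into pyruvate and CO2 and is the principal decarboxylase of maize. It lies on chromosome 3 from 7276387 to 7281737. It had 721.3 FPKM after IAA, against 569.6 FPKM in DMSO, a ratio of 1.27, which was the lowest of the 7 genes that encode enzymes of the C4 cycle. PEP carboxykinase (PEPCK, GRMZM2G001696) releases CO2 from oxaloacetate by an accessory route. This gene, on chromosome 1 from 35744406 to 35748813, had 158.5 FPKM after IAA and 71.5 FPKM in DMSO. Its ratio of 2.22, a log2 ratio of 1.15, was the highest of the 10 genes, although its level was the lowest of the 10 in both treatments. The level of NADP-ME was 4.55 times that of PEPCK after IAA and 7.96 times in DMSO.

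Pyruvate, phosphate dikinase (PPDK, GRMZM2G306345) renews phosphoenolpyruvate in the mesophyll and so closes the cycle. The gene lies on chromosome 6 from 146179404 to 146189965. Its level of 2726 FPKM after IAA stood against 1741 FPKM in DMSO, which put it at number 7 of all genes by level after IAA and at number 10 in DMSO. The ratio was 1.57, and the log2 ratio of 0.65 equalled that of PEPC to the second decimal. The level of PPDK was accordingly 2.17 times that of PEPC after IAA and 2.16 times in DMSO. The RefSeq synonyms of this locus name both a chloroplastic C4 form and a cytosolic form, which the gene-level value does not separate.

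Rubisco fixes the released CO2, and its small subunit is encoded in the nucleus by a few closely similar RbcS genes. The RbcS gene GRMZM2G098520, on chromosome 4 from 190228051 to 190230534, had 1567 FPKM after IAA and 1559 FPKM in DMSO. The RbcS gene GRMZM2G113033, on chromosome 2 from 143429392 to 143430581, had 1840 FPKM after IAA and 1829 FPKM in DMSO. Both ratios were 1.01, and the log2 ratios were 0.0078 and 0.0086. In the DMSO shoots these genes were numbers 1 and 3 of the set by level, whereas after IAA the first place was taken by PPDK. Since these copies are alike in sequence, reads may have been assigned to either of them. Together the 2 genes had 3407 FPKM after IAA and 3388 FPKM in DMSO.

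Rubisco activase (Rca, GRMZM2G162200) removes inhibitory sugar phosphates from Rubisco. It lies on chromosome 4 from 693736 to 696087 and had 304.3 FPKM after IAA, against 202.2 FPKM in DMSO. With a ratio of 1.505, it was the gene of the set just past 1.5-fold, and the next below was the carbonic anhydrase gene GRMZM2G348512 at 1.315. The level of activase was 0.0893 of the summed RbcS level after IAA and 0.0597 in DMSO.

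**Figure D2:**
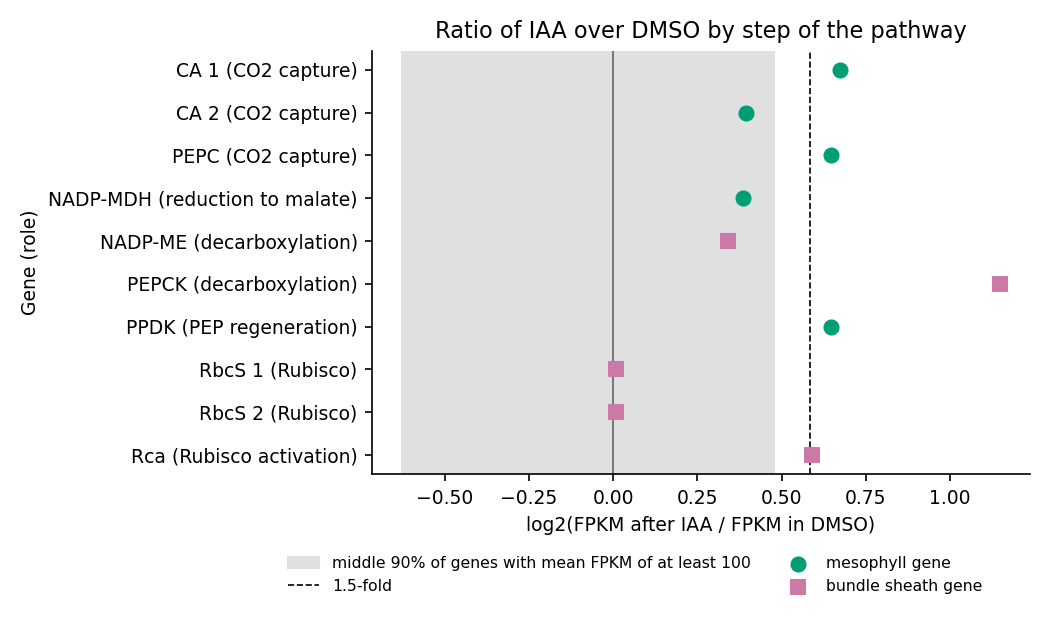
Log2 ratio of FPKM after IAA over FPKM in DMSO (horizontal axis) for the 10 genes in the order of the pathway, circles for mesophyll genes and squares for bundle sheath genes. The grey band holds the middle 90% of the 1498 genes whose mean FPKM reached 100, from -0.63 to 0.48, and the dashed line marks 1.5-fold. The 5 genes past 1.5-fold lie to the right of the band, and the 2 RbcS genes lie near 0.

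By cell type, as known for maize leaves, 5 genes belong to the mesophyll (both carbonic anhydrase genes, PEPC, NADP-MDH and PPDK) and 5 to the bundle sheath (NADP-ME, PEPCK, both RbcS genes and activase). The median ratio was 1.56 for the mesophyll genes and 1.27 for the bundle sheath genes. The ranges overlapped, from 1.31 to 1.596 in the mesophyll and from 1.01 to 2.22 in the bundle sheath. The RbcS genes and NADP-ME, all of the bundle sheath, had ratios below every mesophyll gene. The highest ratio, that of PEPCK, was also of the bundle sheath, and that of activase lay within the mesophyll range. Summed over genes, the mesophyll genes had 5581 FPKM after IAA and 3651 FPKM in DMSO, a ratio of 1.53. The bundle sheath genes had 4591 FPKM after IAA and 4231 FPKM in DMSO, a ratio of 1.09, in which the RbcS genes carry most of the weight.

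The proportions within the pathway were not the same in the pooled values of the treatments. The 10 genes together held 1.29% of the total FPKM of the table after IAA and 0.959% in DMSO. Their summed FPKM was 10173 after IAA and 7882 in DMSO, a ratio of 1.29. Of this difference of 2290 FPKM, 43.0% lay in PPDK and 19.8% in PEPC, and 0.845% in the 2 RbcS genes. Without the RbcS genes the sum was 6766 FPKM after IAA and 4495 FPKM in DMSO, a ratio of 1.51. RbcS made up 33.5% of the FPKM of the set after IAA and 43.0% in DMSO. The summed RbcS level was 2.71 times the PEPC level after IAA and 4.21 times in DMSO.

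Set against all genes, the carbonic anhydrase gene GRMZM2G121878, PEPC and PPDK had ratios that 2.82%, 3.18% and 3.16% of the 22506 genes exceeded. For PEPCK this share was 0.635% and for activase 4.01%. For NADP-ME it was 10.9%, and for the RbcS genes it was 43.3% (GRMZM2G098520) and 43.2% (GRMZM2G113033). The mean FPKM of all 10 genes was above 100, a range that holds 1498 genes with a median log2 ratio of -0.08. In this range 43 genes, or 2.87%, were past 1.5-fold higher, and 5 of the 43 were members of the set. A share of 6.21% was past 1.5-fold lower, and no member was among them. PEPCK had the second highest ratio of the 1498 genes. Among the 206 genes whose mean FPKM reached 500, 9 were past 1.5-fold higher and 12 past it lower. Of the 9, 3 belong to the set, namely the carbonic anhydrase gene GRMZM2G121878, PPDK and PEPC. NADP-ME and both RbcS genes also reached a mean of 500 and were not past 1.5-fold.

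**Figure D3:**
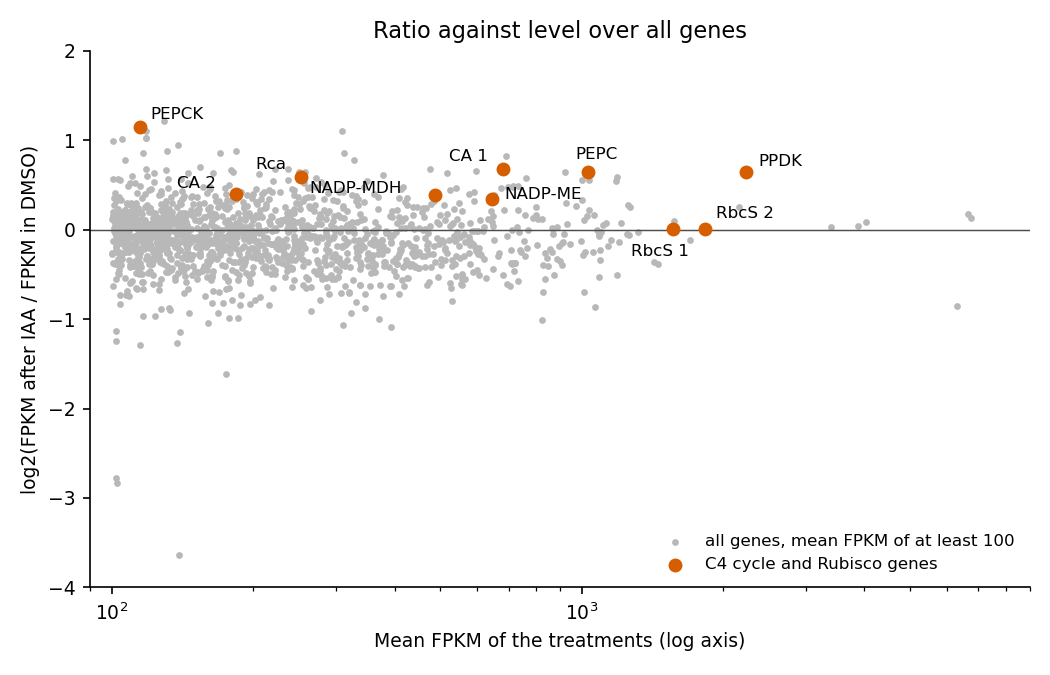
Log2 ratio of FPKM after IAA over FPKM in DMSO (vertical axis) against the mean FPKM of the treatments (horizontal log axis) for the 1498 genes whose mean FPKM reached 100 (grey), with the 10 C4 and Rubisco genes in orange. PEPCK, activase, the more abundant carbonic anhydrase gene, PEPC and PPDK lie along the upper edge of the cloud across the range of levels of the set, and the RbcS genes lie at 0.

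Genes for other isoforms of these enzymes were sought by symbol, and 7 were listed, of which 5 had a mean FPKM that reached 1. Of those 5, 1 was past 1.5-fold higher and none was past it lower, beside 4.10% and 5.18% of all genes. The median log2 ratio of the 5 genes was 0.06. The PEP carboxylase genes pep4 (GRMZM2G473001) and pep7 (GRMZM2G069542) had 27.3 and 46.0 FPKM after IAA, against 26.2 and 48.3 FPKM in DMSO. Their ratios of 1.04 and 0.953 lay below that of the C4 gene. The malic enzyme gene me2 (GRMZM2G122479) had 180.8 FPKM after IAA and 184.4 FPKM in DMSO, a ratio of 0.980. For pck2 (GRMZM5G870932), the other PEP carboxykinase gene, the level was 53.4 FPKM after IAA and 40.3 FPKM in DMSO, a ratio of 1.32. PPDK2 (GRMZM2G097457) had 8.52 FPKM after IAA and 4.26 FPKM in DMSO. Its ratio of 2.0005 was above that of PPDK at a level far lower, and how reads that match both genes were divided was not tested. The activase gene rca3 (GRMZM2G162282), beside activase on chromosome 4, had 0.183 FPKM after IAA and 0.174 FPKM in DMSO, and me4 (GRMZM2G118770) had 0.0533 FPKM after IAA and 0.0110 FPKM in DMSO.

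A list of genes that serve the cycle (kinases, the PPDK regulator, an aminotransferase and translocators) held 11 genes, of which 9 passed the filter on low values. Of those, 4 had ratios above 1 and 5 below, and the median log2 ratio was -0.01. Past 1.5-fold, 1 of them was higher and none lower, beside 4.10% and 5.18% of all genes. PEP carboxylase kinase phosphorylates PEPC and so relieves its inhibition by malate. Of its 4 genes, PPCK2 (GRMZM2G135091) had 2.71 FPKM after IAA and 1.19 FPKM in DMSO, a ratio of 2.28 at the lowest level of the 9 genes. PPCK3 (GRMZM2G096753) had 6.96 FPKM after IAA and 4.80 FPKM in DMSO, and PPCK4 (GRMZM2G049541) had 3.48 FPKM after IAA and 2.45 FPKM in DMSO. PPCK1 (GRMZM2G178074) had a ratio below 1, at 5.08 FPKM after IAA and 6.05 FPKM in DMSO. The regulatory protein of PPDK, pdrp1 (GRMZM2G131286), which switches that enzyme on and off with light, had 108.9 FPKM after IAA and 90.9 FPKM in DMSO. Its ratio of 1.20 was below the 1.57 of PPDK itself. The lowest ratio of the list, 0.742, was that of ppt2 (GRMZM2G103047), a translocator of phosphoenolpyruvate across the chloroplast envelope, with 33.5 FPKM after IAA and 45.2 FPKM in DMSO. For ppt1 (GRMZM2G047404), a translocator of the same kind, the level was 49.4 FPKM after IAA and 61.0 FPKM in DMSO, a ratio of 0.809. The alanine aminotransferase gene GRMZM2G088064 had 305.8 FPKM after IAA and 359.2 FPKM in DMSO, a ratio of 0.851. The most abundant gene of the list, the triose phosphate translocator TPT (GRMZM2G070605), had 616.0 FPKM after IAA and 620.5 FPKM in DMSO.

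Downstream of Rubisco, symbols identified 2 genes of the Calvin cycle, the chloroplastic glyceraldehyde-3-phosphate dehydrogenase subunits A and B, which reduce the product of carbon fixation. The gene gpa1 (GRMZM2G337113) had 1405 FPKM after IAA and 961.8 FPKM in DMSO, a ratio of 1.46. The gene gpb1 (GRMZM5G845611) had 628.6 FPKM after IAA and 404.0 FPKM in DMSO, a ratio of 1.56. These ratios lay in the range of the C4 genes and above those of the RbcS genes. The cytosolic counterparts GAPC1, GAPC2 and GAPC3, which act in glycolysis and were added after their values had been seen, had ratios of 0.886, 0.907 and 0.748.

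Of the 8 chlorophyll a-b binding protein genes, which bind pigment in the antennae, 4 had ratios above 1 and 4 below, and the median log2 ratio was -0.06. The shares of all genes past 1.5-fold were 4.10% higher and 5.18% lower. Among the 8 genes, only lhcb6 (GRMZM2G092427) was past it, with 1127 FPKM after IAA and 719.5 FPKM in DMSO, a ratio of 1.57. Next came cab-m1 (GRMZM2G351977), with 1238 FPKM after IAA and 841.0 FPKM in DMSO, a ratio of 1.47. The lowest ratio, 0.831, belonged to lhcb3 (GRMZM2G155216). The most abundant gene, CAB1 (AC207722.2_FG009), had 3929 FPKM after IAA and 3809 FPKM in DMSO. Of 8 listed photosystem genes, 6 passed the filter, and none of these was past 1.5-fold in either direction. Of the 6, 5 had ratios above 1 and 1 below, and the median log2 ratio was 0.13. The most abundant was psb29 (GRMZM2G033885), with 1379 FPKM after IAA and 1158 FPKM in DMSO. The ratios ran from 0.820 for psah1 (GRMZM2G451224) to 1.20 for psbs1 (GRMZM2G077333). For photorespiration the only gene found was go1 (GRMZM2G129246), encoding glycolate oxidase, with 143.4 FPKM after IAA and 124.8 FPKM in DMSO.

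**Figure D4:**
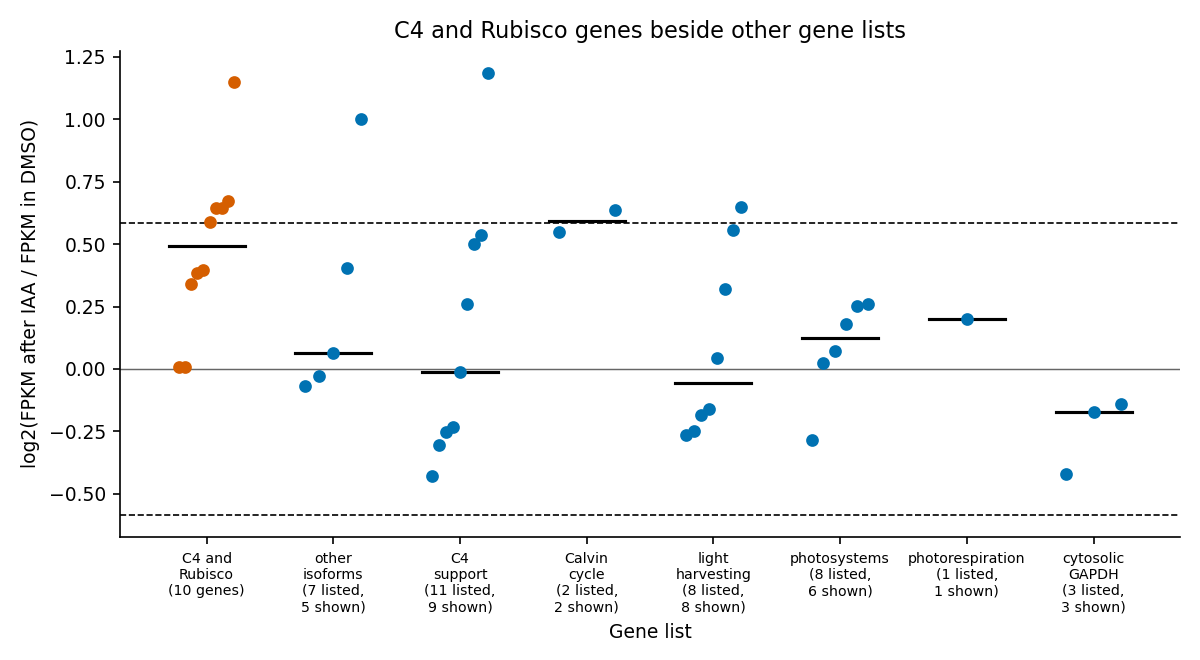
Log2 ratio of FPKM after IAA over FPKM in DMSO (vertical axis) for each gene of the C4 and Rubisco set (orange) and of 7 other lists (blue), with a black bar at each list's median and dashed lines at 1.5-fold in either direction. Genes with a mean FPKM under 1 are not drawn. The medians are 0.49 for the C4 and Rubisco set, 0.59 for the 2 Calvin cycle genes and -0.06 for light harvesting.

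The loci of the 10 genes lie on 6 chromosomes, and none of them overlaps another gene of the table. Apart from the carbonic anhydrase pair, no member has another as a close neighbour. The nearest 2 genes on each side outside the set whose mean FPKM reached 1, which came to 36 distinct genes, had a median ratio of 0.957 and a range from 0.517 to 1.70. Of these 36, 3 were past 1.5-fold higher and 2 past it lower, beside 4.10% and 5.18% of all genes.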

How the data were processed

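RNA-seq libraries from B73 seedling shoots (3 after IAA, 3 in DMSO) were trimmed by the authors with trimmomatic and mapped to B73v3 with TopHat2 2.1.1 at default settings. Cuffdiff 2.2.1 was then run by the authors. The versions are from the submitters' processing notes. The FPKM values deposited by the authors are pooled over replicates, with 1 value for each treatment. The table also holds cuffdiff's fold changes, test statistics, p-values and q-values, and these were not used. The libraries were stranded, and for most analyses of the study the annotation was the primary B73v3 transcripts from phytozome. Whether cuffdiff used these transcripts or the strand, and its options, are not given in the sources used here.

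Ratios were computed without a pseudocount, over genes whose mean FPKM reached 1 with no value of 0. No test was made. The counting of calls was tested on simulated data. Locus starts were raised by 1, because the length in RefSeq equalled end minus start for 537 genes and that plus 1 for 67. Names came from the deposited table, which names 416 genes, and from RefSeq's Zm-B73-REFERENCE-NAM-5.0 table, which matched 18843 of 39283 identifiers and all 10 members. That table holds symbols but no descriptions, so lists planned by description were taken by symbol. Named were all members and, in each list, the most abundant gene, those with the highest and lowest ratio, and further list genes chosen after their values were seen. Members and lists were chosen with earlier results of these data known. Alternatives were other folds, pseudocounts, scalings, summed copies and members left out. Calculations used pandas 2.3.3 and numpy 2.4.6 in Python 3.11.15, and plots matplotlib 3.10.9. DNA-binding and chromatin data of the study were not analysed here.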

Additional observations from a re-analysis of the deposited data

How the results depend on the processing

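No paired analysis was possible because cuffdiff's output gives the replicates of a treatment as 1 pooled FPKM, and leaving out replicates was not possible for the same reason. The count of 5 C4 and Rubisco genes past 1.5-fold higher was the same with 1 FPKM added to both values and with the median log2 ratio of all genes set to 0. It was also the same with both treatments scaled to the same total FPKM, and with a limit of 1.4-fold (6.02% of all genes). It was 8 at a limit of 5/4 (11.8% of all genes) and 1 at 2-fold (0.938%), and it was also 1 at 1.6-fold (2.78%), since 4 of the ratios lie between 1.5 and 1.6. The limits of 1.4-fold and 1.6-fold were chosen after seeing the data. None was past the limit lower under any of these settings. The median log2 ratio of 0.49 was 0.47 with 10 FPKM added, 0.53 with the median of all genes set to 0, 0.56 with both treatments scaled to the same total FPKM, and 0.60 with the carbonic anhydrase genes summed and the RbcS genes summed. Over all genes, the median log2 ratio was -0.03 with no filter and -0.08 for genes whose mean FPKM reached 100. The ratio of the summed FPKM, 1.29, was 1.33 with the median set to 0 and 1.35 with the scaling to the same total, and between 1.21 (without PPDK) and 1.38 (without the RbcS gene GRMZM2G113033) with each gene left out in turn. Scaling raised every log2 ratio by 0.04 or 0.06. Since all ratios of the set were already above 1, no gene could change direction by it. The RbcS ratios were 1.05 when scaled to the same total. How far sequencing depth limits low genes such as PPCK2 was not measured, because the depth of the libraries is not known.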
